A study of Mus musculus with 8 samples.

Results

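The levels of 10 mesendoderm genes were followed while mouse embryonic stem (ES) cells turned into neural precursors. The genes were T, Eomes, Mixl1, Gsc, Foxa2, Sox17, Gata4, Gata6 and Lhx1, which encode transcription factors, and Cer1, which encodes a secreted inhibitor. They were chosen by name, as every non-control probe that carries one of these gene names, which gave 14 of the 55681 probes and 10 of the 36163 gene names on the array. Of the 10 genes, 6 had 1 probe and 4 had 2, and each of these probes was printed in 1 spot. All cells came from the E14Tg2A line, an ES cell line of strain 129/Ola, and the labels name no mutation or drug in any group. ES cells were collected at 0 days in vitro (DIV) from serum medium with LIF. Epiblast-like aggregates (ELA, 2 DIV) had floated in serum-free minimal medium, neural progenitor cells (NPC, 6 DIV) had been replated on poly-ornithine and laminin, and neural precursors (NPC/Neu, 10 DIV) had been replated once more without the B27 supplement. At each stage 1 array received total RNA and 1 array received Ago-RNA, that is RNA recovered from the cytosol with an antibody against Argonaute (Ago), the protein that carries miRNAs to their target mRNAs. Each array held RNA pooled from 3 experiments on this cell line, so no group has a replicate and no p-value can be given. In such bulk samples, fewer cells of a type and less RNA per cell cannot be told apart.

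In the embryo, Nodal and Wnt signals induce the primitive streak, the region where epiblast cells become mesoderm and endoderm, and T, Eomes, Mixl1 and Gsc are among the genes switched on there. Foxa2, Sox17, Gata4 and Gata6 are known as endoderm regulators, Lhx1 acts in the anterior streak and node, and Cer1 protein binds Nodal, Bmp and Wnt ligands outside the cell. Several of these genes are used again later in the nervous system: Foxa2 in the floor plate and the ventral midbrain, Eomes in intermediate progenitors of the cortex, and Lhx1 in interneurons and in the mid-hindbrain.

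Signals are log2 values after background correction and quantile normalization, on which a difference of 1 is 2-fold. A gene was counted as detected on an array where at least 1 of its probes was well above background by the scanner software. Where a probe was not, its value is only an upper limit, and a difference from it is given as "at least". A gene was called changed between stages when its log2 signal, averaged over its probes, differed by at least 1. That mean takes in probes at background too. A difference over a gene is given as a bound only where 1 array detected none of its probes. The only error that can be measured is that between spots: over 399 probes printed in 10 spots each, the SD of a difference between stages in total RNA was 0.22 to 0.23, and that of a difference between Ago-RNA and total RNA 0.21 to 0.25. Signals of different probes are not compared, since a probe's brightness depends on its sequence.

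The stage labels matched their markers. Of 7 pluripotency genes, 6 fell from ES to ELA and 6 from ELA to NPC, 3 of 5 epiblast genes rose from ES to ELA, 6 of 7 neural progenitor genes rose from ELA to NPC, and all 6 neuron genes measured rose from NPC to NPC/Neu. The largest falls among the pluripotency genes were those of Pou5f1, Nr0b1 and Zfp42 (log2 differences of -6.78, -3.90 and -3.66), beside late rises of Esrrb (1.96) and Zfp42 (1.06). The epiblast genes Fgf5, Sox3 and Dnmt3b rose by 2.81, 2.69 and 1.32 from ES to ELA, and Fgf5, Dnmt3b and Pou3f1 fell from ELA to NPC (-7.30, -5.55 and -3.95), before a rise of Pou3f1 by 1.57 in NPC/Neu. Zic1, Fabp7 and Hes5 led the neural progenitor genes with 6.29, 5.39 and 4.98, with a later fall of Zic1 (-1.71), and among the neuron genes Elavl3 and Dcx rose by 3.11 and 2.93 from NPC to NPC/Neu and Nefl by 2.43 from ELA to NPC, after a fall (-1.86). All 8 arrays lay on 1 slide. The ES Ago-RNA array was the brightest, with an upper quartile of spot signal of 3039, beside 1060 to 1774 elsewhere.

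In total RNA, ES cells showed 7 of the 10 genes above background, ELA 6, NPC 8 and NPC/Neu 6, while over all genes the share detected was 65.6%, 60.6%, 65.5% and 64.3%. T, Eomes, Gsc, Foxa2 and Lhx1 were detected at all 4 stages. Sox17 was missing in ELA only, Gata4 was lost in NPC/Neu, Cer1 appeared in NPC only, and Mixl1 and Gata6 were detected at no stage. Many of these signals were dim: above a stricter limit of 7.83, set at 3 SD over the mean of the dimmer of 2 fitted signal populations, 1 member was left in ES cells (Eomes), 2 in ELA (Eomes and Foxa2), 5 in NPC (with T, Gsc and Sox17) and 4 in NPC/Neu (T, Eomes, Foxa2 and Lhx1). The shares of all genes given above were not taken at this stricter limit. The spread over the stages was large for 4 genes, 4.17 for Lhx1, 3.35 for Foxa2, 2.73 for Eomes and 2.55 for T. For the other 6 it was at most 1.25.

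**Figure D1:**
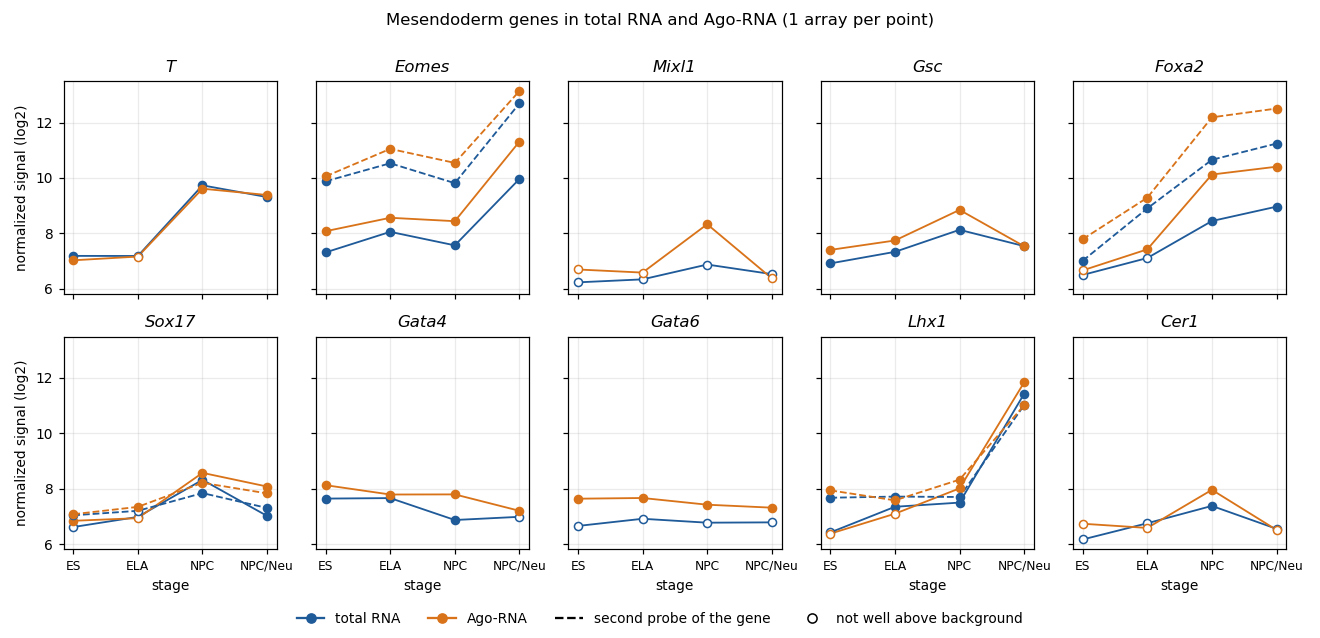
Normalized signal (log2, y axis) of each mesendoderm gene at the 4 stages (x axis), in total RNA (blue) and Ago-RNA (orange), with 1 array per point, a dashed line for the second probe of a gene and open circles for probes not well above background. T steps up by 2.55 from ELA to NPC, Eomes and Lhx1 rise at NPC/Neu, Foxa2 climbs over the stages, and Mixl1 leaves background only in Ago-RNA of NPC.

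From ES to ELA, 1 of the 7 members tested rose, Foxa2, against 4.04% of all genes, and 0 fell, against 4.19%. From ELA to NPC, 2 of 8 rose, T and Foxa2, against 9.66% of all genes, and 0 fell, against 9.04%. From NPC to NPC/Neu, 2 of 8 rose, Eomes and Lhx1, against 5.23% of all genes, and 0 fell, against 3.81%. The median log2 difference of the members tested was 0.42, 0.61 and -0.21 at the 3 transitions, beside 0.0, 0.0 and -0.03 over all genes tested.

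**Figure D2:**
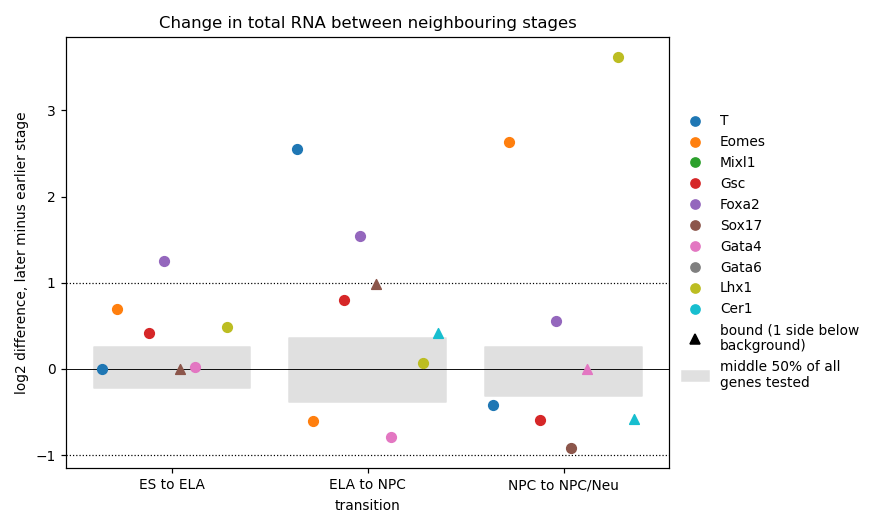
Log2 difference in total RNA between neighbouring stages (y axis) for each member at the 3 transitions (x axis), with triangles for values where 1 stage was below background, grey boxes for the middle 50% of all genes tested, dotted lines at the call limits and no point for Mixl1 and Gata6, which were at background in total RNA. Foxa2 lies above 1 at the transitions from ES to ELA and from ELA to NPC, T only at the second of these, and Eomes (2.64) and Lhx1 (3.62) at the last.

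T, the T-box factor that marks the nascent mesoderm and the notochord, stayed low until the neural progenitor stage. Its probe (mm9, chr17:8635302-8635361, the last 60 bases of the 3′ UTR in exon 8 of 8) gave 7.19 in ES cells and again 7.19 in ELA, then 9.73 in NPC and 9.31 in NPC/Neu. ELA thus showed no more T than ES cells, and the NPC and NPC/Neu arrays both lay far above. The rise from ELA to NPC was 5.85-fold, larger than the change of 98.5% of all genes tested. On the log2 scale it was 2.55, against 3.31 after scaling the scanner's processed signal to each array's 75th percentile and 3.57 with that signal under quantile normalization. The decrease of 0.42 that followed was below the call limit.

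Some Wnt genes were higher at the same transition, and others were not. Of the 11 streak inducing signals and their direct responders, 5 rose and 3 fell from ELA to NPC. Wnt3, the ligand needed for streak formation, read 7.95 in ES cells, was not well above background in ELA, and reached 10.62 in NPC and 9.71 in NPC/Neu. The Wnt target Sp5 went from 10.81 in ES cells to background in ELA and then to 13.00 and 13.20. Axin2, a feedback inhibitor of the same pathway, rose by 2.30 from ELA to NPC, and Frzb, a secreted Wnt antagonist of another list, rose by at least 2.63. The other genes that rose were Fgf8 (1.66) and the Wnt inhibitor Dkk1 (at least 1.64). Those that fell were Fgf4 and Fgf5, with log2 differences of -6.66 and -7.30, and Lef1, a DNA-binding effector of Wnt signals, which went from 13.11 in ELA to 11.79 in NPC (-1.33). The ligands Wnt3a and Wnt8a did not reach the call limit, with differences of at least 0.37 and of 0.50.

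T is known as a target of Wnt signals, which act through TCF/LEF factors, and its promoter is shown for that background only. Lef1, the only factor of this family in the list, read 13.11 in ELA and 11.79 in NPC, and T was higher in NPC than in ELA. A link of T to Lef1 or to other TCF/LEF factors was not tested. The 250 bases before the start site of T (RefSeq, GRCm38.p6, chr17:8434173-8434422, plus strand) hold 1 match to the TCF/LEF core CTTTGA, in capitals on the opposite strand as TCAAAG, 234 to 229 bases before the start:
T promoter: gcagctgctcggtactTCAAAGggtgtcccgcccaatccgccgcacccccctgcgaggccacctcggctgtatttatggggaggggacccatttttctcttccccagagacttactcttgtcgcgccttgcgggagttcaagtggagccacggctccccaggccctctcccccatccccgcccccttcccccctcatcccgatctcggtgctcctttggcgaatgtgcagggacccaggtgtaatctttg

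Both strands were searched, and 13.8% of the 32851 promoters of this length in the table hold the same letters. Of the 6 members listed there, T was the only one with a match. A T-box core (TCACACC, in 3.33% of promoters) and the FOXH1 core (AATNCACA, in 3.18%) were found in none of the 6. A match describes the letters only, and no binding was measured.

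Eomes, the T-box factor of the early streak and the endoderm, was present at every stage and highest at the end. The upstream of its 2 probes (chr9:118394425-118394484, in the 3′ UTR, 766 bases before the end of the transcript) read 9.88 in ES cells and 10.53 in ELA, then 9.81 in NPC and 12.69 in NPC/Neu. The probe at the 3′ end of the transcript (chr9:118395189-118395248) read 7.31, 8.06, 7.57 and 9.97. Both lie in exon 6 of 6, and both followed the same course. The differences from ES to ELA, 0.65 and 0.74, were larger than the spot SD of 0.23 yet below the call limit. From NPC to NPC/Neu the 2 probes rose 7.35-fold and 5.27-fold, and over the gene the rise of 2.64 exceeded that of 99.5% of all genes.

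Mixl1, a homeobox gene of the streak, was at background in total RNA at all 4 stages, with values of 6.23, 6.34, 6.88 and 6.53 (chr1:182624310-182624369, 3′ UTR). Gsc, the homeobox gene of the organizer, was detected on all arrays but stayed dim. Its probe (chr12:105709426-105709485, 3′ UTR) read 6.92 in ES cells and 7.33 in ELA, then 8.13 in NPC and 7.54 in NPC/Neu. NPC was thus the highest stage, 2.32-fold above ES cells, while no step between neighbouring stages reached the call limit. The step from ELA to NPC was 0.80 here and passed the limit at 1.05 with an offset of 0 and at 1.43 and 1.61 with the processed signal under either scaling. The decrease after NPC (-0.59) became -1.06 with the processed signal under quantile normalization.

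Lhx1, the LIM homeobox gene of the anterior streak, had the largest change of the 10 genes, from NPC to NPC/Neu. One of its probes reads across a splice junction in the coding sequence, which is shown because only a spliced Lhx1 transcript holds it without a gap. It spans 31 bases of exon 2 and, in capitals, 29 bases of exon 3 of 5 (mm9, chr11:84335442-84335594, minus strand):
Lhx1 junction probe: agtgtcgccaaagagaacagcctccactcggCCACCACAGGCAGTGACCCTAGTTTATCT

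This probe read 7.67 in ES cells and 7.71 in ELA, then 7.70 in NPC and 11.01 in NPC/Neu, a 9.96-fold rise at the last step. The 3′ UTR probe (chr11:84331888-84331947) was at background in ES cells (6.42) and read 7.34 in ELA and 7.49 in NPC, then 11.42 in NPC/Neu, a 15.2-fold rise. The NPC/Neu array stood far above the other 3 for both probes. Over the gene, the rise of 3.62 exceeded that of 99.9% of all genes. The earlier difference from ES to ELA was 0.48 over the gene, with the 3′ UTR probe above background in ELA only, and it passed the call limit with the processed signal, at 1.77 scaled to the 75th percentile and 1.63 under quantile normalization.

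Foxa2, the forkhead factor of endoderm, node and floor plate, was the only member that rose at more than 1 transition. Its brighter probe (chr2:147868669-147868728) read 7.01 in ES cells and 8.90 in ELA, then 10.66 in NPC and 11.24 in NPC/Neu. The dimmer probe (chr2:147868614-147868673) was at background in ES cells (6.50) and ELA (7.11) and read 8.45 in NPC and 8.97 in NPC/Neu. The probes lie next to each other at the end of the 3′ UTR and share 5 bases, so they are no independent measurements. On the brighter probe the level increased 3.71-fold from ES to ELA and 3.37-fold from ELA to NPC, and in NPC/Neu it was 18.7-fold above ES cells. The rise from ES to ELA was 1.25 over the gene, a mean that takes in the dimmer probe, at background on both arrays. It was 1.78 with an offset of 0, and 2.81 and 2.76 with the processed signal under either scaling. As a bound it was 0.18 when genes under the stricter limit of 7.83 were counted as absent. The rise from ELA to NPC was 1.54 over the gene, and 2.23 with the processed signal under quantile normalization.

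Sox17, the HMG box factor of definitive endoderm, had its highest total RNA signal in NPC. One probe (chr1:4481503-4481562) was at background in ES cells (6.61) and ELA (6.98), read 8.32 in NPC and 7.01 in NPC/Neu. The other (chr1:4481038-4481097) read 7.04 in ES cells, was at background in ELA (7.20), and read 7.84 in NPC and 7.30 in NPC/Neu. The NPC array was the highest for both 3′ UTR probes. Over the gene the difference from ELA to NPC was at least 0.99, just under the call limit, 1.98 with the scanner's processed signal under quantile normalization and 0.64 on the brighter of the 2 probes alone. The difference from NPC to NPC/Neu, -0.92, passed the limit with offsets of 16 and 0 (-1.12 and -1.25) and with the processed signal (-1.57 and -1.77).

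Gata4 and Gata6, zinc finger factors of endoderm and heart, did not share this peak. Gata4 (chr14:63817858-63817917, 3′ UTR) read 7.64 in ES cells and 7.66 in ELA, then 6.87 in NPC and, at background, 6.98 in NPC/Neu. Its signal was lower on both late arrays, with a difference of -0.79 from ELA to NPC that passed the limit at -1.02 and -1.19 with offsets of 16 and 0, and at -1.55 and -1.52 with the processed signal under either scaling. Gata6 (chr18:11085039-11085097 in the file, a probe not found letter for letter in the annotated coding transcripts) was at background in total RNA throughout, at 6.65, 6.91, 6.77 and 6.78.

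Cer1 encodes the inhibitor that the anterior endoderm secretes against Nodal, Bmp and Wnt. Its probe (chr4:82527655-82527714, the last 60 bases of the transcript) was at background in ES cells (6.16), ELA (6.75) and NPC/Neu (6.55), and read 7.38 in NPC. The step from ELA to NPC was at least 1.33-fold. The fall after NPC was at least 0.58 on the log2 scale and passed the limit with the processed signal (-1.08 and -1.21). Cer1, Gsc, Sox17 and, in Ago-RNA, Mixl1 thus had their highest signal on the NPC arrays, all of them below 9.

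Nodal, its co-receptor, both Lefty genes, Pcsk6, Gdf3 and Smad7 fell at the first step. Most other genes of the Nodal pathway, which acts upstream of many of the 10 genes, did not reach the call limit. Of its 20 listed genes 19 were detected in ES cells. From ES to ELA 7 of 19 fell, against 4.19% of all genes, and 1 rose, against 4.04%. The gene that rose was Furin, a protease that processes the Nodal precursor (1.13). The other 11 did not reach the call limit, with Acvr2b just under it at 0.996. The median difference was -0.29, and the log2 of the summed signal was 16.65 in ES cells and 16.56 in ELA. The largest part of that sum was the receptor Acvr2b, which read 14.69 in ES cells and 15.68 in ELA. The sum thus does not show the course of the other genes. Nodal itself read 13.36 in ES cells and 9.66 in ELA, then 9.54 in NPC and 9.15 in NPC/Neu. Its co-receptor Tdgf1 read 13.31, 10.11, 8.56 and 8.57. Lefty1 and Lefty2, Nodal targets that feed back on the ligand and are close paralogs whose probes may cross-react, had log2 differences of -3.73 and -2.42 from ES to ELA. Pcsk6, Gdf3 and Smad7 had differences of -2.13, -1.68 and -2.85 at the same step. Foxh1, the DNA-binding partner of Smad2, fell later, with a difference of -4.59 from ELA to NPC. At that later step Smad3, Smad7 and the receptor Acvr2a rose by 1.51, 1.41 and 1.26. Smad7 then read 10.12 in NPC, below its 11.55 in ES cells. From NPC to NPC/Neu 1 of 19 fell and 0 rose.

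**Figure D3:**
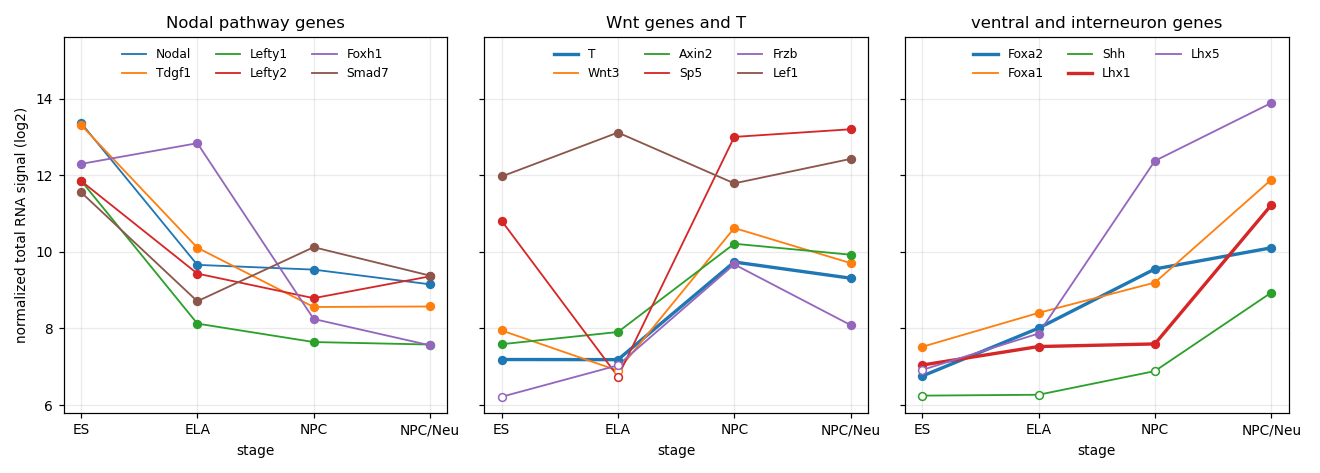
Normalized total RNA signal (log2, y axis, mean over a gene's probes) at the 4 stages (x axis) for Nodal pathway genes, Wnt pathway genes with T, and ventral and interneuron genes with Foxa2 and Lhx1, with members as thick lines and open circles for genes not well above background. Nodal drops from 13.36 to 9.66 at the first step, T, Wnt3, Sp5, Axin2 and Frzb are higher in NPC than in ELA while Lef1 is lower, and Lhx1 joins Foxa1 and Shh at NPC/Neu.

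Among 26 other streak, mesoderm and endoderm genes, total RNA of ES cells showed 15 above background, ELA 12, NPC 16 and NPC/Neu 14. From ELA to NPC 4 rose and 4 fell, and from NPC to NPC/Neu 3 rose and 1 fell. Otx2, a head organizer and forebrain gene, stayed between 15.53 and 16.06. Cxcr4, a chemokine receptor of definitive endoderm that neural cells also use, went from background to 10.99 in NPC and 10.97 in NPC/Neu. The endoderm genes Hhex and Foxa3 fell from ELA to NPC, with differences of -2.58 and, as a bound, -2.76, and so did Trh (-2.39), while Foxa1 rose from NPC to NPC/Neu. The notochord gene Noto and the endoderm gene Hnf4a were at background in total RNA at all stages.

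Markers of other cell types moved at the same steps. Of 8 floor plate and ventral midbrain markers, 3 rose from ELA to NPC and 4 from NPC to NPC/Neu, and the log2 of their summed signal was 10.01, 10.72, 14.27 and 14.71 over the stages. This list holds Foxa2 itself. Lmx1a rose by at least 6.65 and later fell (-2.42), and Foxa1 rose by 2.68. Lmx1a reached 13.61 in NPC and Foxa1 11.88 in NPC/Neu, and Shh was detected in total RNA of NPC/Neu only, at 8.93. Corin, of the same list, was at background in total RNA of every stage. Neither Corin nor Shh was thus seen in total RNA of NPC, where Lmx1a peaked. Of 7 interneuron and mid-hindbrain markers, 4 rose at each of these steps, with a summed signal of 10.95, 10.50, 13.30 and 15.14, and Lhx5, a close relative of Lhx1, read 13.88 in NPC/Neu. Its step of 4.50 from ELA to NPC was the largest rise of the list at any transition. The next genes were Lhx9, with 2.46 from NPC to NPC/Neu, and En2, with 2.39 from ELA to NPC. Evx1 read 8.27 in ES cells and was at background in ELA, a difference of -1.31 as a bound. En1 was at background in total RNA of all stages, and Pax2 stayed between 6.77 and 6.99.

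Of 17 extraembryonic endoderm markers, 7 rose and 2 fell from ELA to NPC, and 0 rose and 5 fell after that. Their summed signal was 16.13, 15.68, 16.27 and 16.34. The largest steps were those of Ttr (at least 3.36 up and then, as a bound, -3.38), Pdgfra (at least 2.97 up and then -2.31) and Col4a2 (2.66), and Amn fell (-2.09). Ttr was detected in NPC only, at 10.32, while Afp, Apoa1 and Hnf4a were at background in total RNA of every stage. Of 6 mesoderm markers, T included, 3 rose from ELA to NPC and the summed signal was 11.24, 11.05, 12.76 and 12.42. Besides T, Kdr rose by 1.84 and Pdgfra went from background to 9.93 in NPC and 7.63 in NPC/Neu, while Mesp1 was at background in total RNA of all stages. Of 5 definitive endoderm markers, Foxa2, Sox17 and Cer1 included, 5 were detected in NPC, beside 65.5% of all genes, and 3, 2 and 3 in ES cells, ELA and NPC/Neu. Of those in NPC, Hhex read 6.95, after 9.54 in ELA, and Cer1 7.38, both under the stricter limit of 7.83. The summed signal was 10.52, 10.40, 11.71 and 11.74 over the stages, and Cxcr4 had the largest rise, at least 4.03. The part of these cell types in the levels of the 10 genes was not tested.

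The genes whose course was most like that of each changing member were sought among 26552 genes detected in total RNA, by the distance of their log2 signals over the 4 stages after each gene's mean was removed. For T the listed genes were Prrx1, a mesenchymal homeobox gene, at 0.046, Cd82 at 0.15 and the unnamed transcript ENSMUST00000134929 at 0.16. Prrx1 was at background in ES cells (6.41) and ELA (6.37), so its distance and rank are not exact, and Cd82 was the nearest gene detected at all 4 stages. For Foxa2 the nearest was Nr4a2, a nuclear receptor of midbrain dopaminergic neurons, at 0.12, followed by App at 0.17 and a transcript of chromosome 11 without a gene name at 0.18. For Eomes they were 5033421B08Rik at 0.17, Pou2f2 at 0.18 and D230034L24Rik at 0.18, and for Lhx1 they were Dusp8 at 0.16, Fam155a at 0.24 and 6430597G12Rik at 0.27. Of the last 3, Fam155a was at background in ES cells and ELA and 6430597G12Rik in all but NPC/Neu. With 4 points a small distance is a description of shape only.

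In Ago-RNA, 8 members were detected in ES cells and 7 in ELA, then 10 in NPC and 8 in NPC/Neu, beside 66.7%, 59.5%, 60.6% and 61.0% of all genes. The NPC array was thus the only one of the 8 on which all 10 genes were above background. Ago enrichment (E) is the log2 signal in Ago-RNA minus that in total RNA of the same stage. E of at least 1 was found in 0 of 8 members tested in ES cells (9.29% of all genes), 0 of 8 in ELA (3.61%), 2 of 10 in NPC (5.1%) and 1 of 8 in NPC/Neu (10.7%). E of -1 or less was found in 0 members at each stage, beside 10.3%, 2.76%, 5.44% and 11.1% of all genes. The median E of the members tested was 0.47, 0.24, 0.68 and 0.37, beside 0.03, -0.02, 0.0 and 0.02 over all genes, and it stayed above the median of all genes under each scaling tried, though with separate quantile normalization the distance in ELA shrank to 0.07. These values include genes above background on only 1 of the 2 arrays, whose E can point only to that side. Gata6 at all stages and Mixl1 in NPC entered in this way, through Ago-RNA. With detection on both arrays the members' median was 0.47, 0.35, 0.65 and 0.50, beside 0.03, -0.02, 0.04 and 0.07 over all genes.

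**Figure D4:**
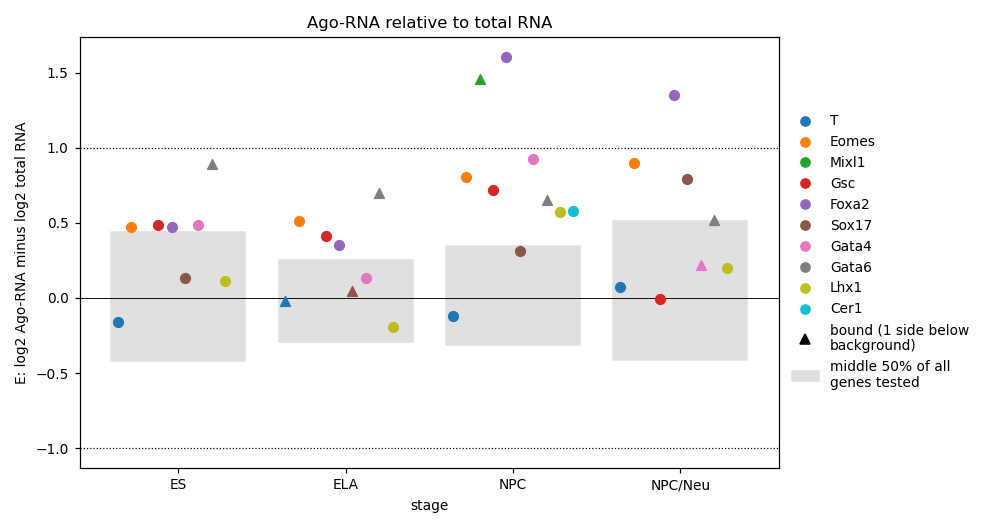
Ago enrichment E (y axis, log2 Ago-RNA minus log2 total RNA) of each member at the 4 stages (x axis), with triangles where 1 of the 2 arrays was below background, grey boxes for the middle 50% of all genes tested and dotted lines at 1 and -1. Foxa2 is at 1.60 in NPC and 1.35 in NPC/Neu, Mixl1 at 1.45 in NPC as a lower bound, and T at -0.16 in ES cells, -0.12 in NPC and 0.07 in NPC/Neu.

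Foxa2 and Mixl1 were the members called enriched on Ago, Foxa2 at both late stages. The Foxa2 probes gave E of 1.53 and 1.68 in NPC and of 1.26 and 1.44 in NPC/Neu, against 0.78 on the brighter probe in ES cells and 0.39 and at least 0.31 in ELA. On the brighter probe its Ago-RNA signal was 7.79 in ES cells and 9.29 in ELA, then 12.19 in NPC and 12.51 in NPC/Neu, and on the dimmer probe it was 6.67, at background, 7.42, 10.12 and 10.41. On all 4 Ago-RNA arrays the brighter probe thus exceeded its total RNA signal, and the gap widened from ELA to NPC by more than the spot SD. The NPC value over the gene, 1.60, was above that of 98.9% of all genes. E of Foxa2 was thus higher on the later arrays, where its total RNA was also higher.

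Mixl1 was seen only on Ago. Its Ago-RNA signal was 6.70 in ES cells, 6.59 in ELA and 6.38 in NPC/Neu, all at background, and 8.33 in NPC, where total RNA was at background with 6.88. The enrichment in NPC was therefore at least 2.74-fold. On the log2 scale this bound was 1.45, and it rose to 2.55 and 3.01 with the processed signal under either scaling, above Foxa2 (1.71 and 1.80), so the order of these genes is not settled. Gata6 was detected on all 4 Ago-RNA arrays and on no total RNA array: its Ago-RNA signal was 7.64, 7.66, 7.42 and 7.31, and the enrichment was at least 1.86-fold, 1.63-fold, 1.57-fold and 1.43-fold from ES to NPC/Neu. Under the stricter limit Gata6 was absent from Ago-RNA as well, and the bound for Mixl1 shrank to 0.50.

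The enrichment of Eomes depended on the probe. The probe at the 3′ end read 8.08, 8.56, 8.44 and 11.31 in Ago-RNA from ES cells to NPC/Neu, and the upstream probe 10.06, 11.05, 10.54 and 13.14. Both were above total RNA at every stage and followed its course. In NPC/Neu E was 1.35 at the 3′ end and 0.45 on the upstream probe, a larger gap than the spot SD, while in ELA the probes gave 0.51 and 0.52. Sox17 read 8.57 and 8.21 in Ago-RNA of NPC, its highest stage there too, and 8.07 and 7.83 in NPC/Neu. It had E of 1.06 and 0.53 on its probes in NPC/Neu and 0.25 and 0.37 in NPC. T read 7.03 in Ago-RNA of ES cells and 7.16, at background, in ELA, then 9.61 in NPC and 9.38 in NPC/Neu, so that its Ago-RNA rose along with its total RNA. Its E was -0.16 in ES cells, at most -0.02 in ELA, then -0.12 for NPC and 0.07 for NPC/Neu, each value within the spot SD. The values of the early stages depended on the scaling: after scaling of the processed signal to the 75th percentile they were -1.13 in ES cells and at most -0.99 in ELA, where the median of all genes was -0.31 and -0.17, and under quantile normalization -0.47 and at most -0.51. Gsc read 7.40, 7.74, 8.85 and 7.54 in Ago-RNA, with E of 0.49, 0.41, 0.72 and -0.01. Gata4 read 8.12, 7.79, 7.79 and 7.20, above background on all 4 Ago-RNA arrays, with E of 0.48, 0.13, 0.92 and at least 0.22. Its Ago-RNA was the same in ELA and NPC while its total RNA was lower in NPC. Cer1 read 6.73, 6.58, 7.96 and 6.51 in Ago-RNA and was above background in NPC only, as in total RNA, with E of 0.58. Lhx1 read 11.83 on the 3′ UTR probe and 11.01 on the junction probe in Ago-RNA of NPC/Neu, beside at most 8.32 on any earlier Ago-RNA array. Its E was 0.41 on the 3′ UTR probe and -0.01 on the junction probe in NPC/Neu, where its level was highest. In ELA, where its 3′ UTR probe was at background in Ago-RNA, its E over the gene was -0.19, and -1.33 after scaling of the processed signal to that percentile.

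Further members and stages passed the limit of E under other settings only. With offsets of 16 and 0 this held for Gata4 in NPC (1.18 and 1.36) and for Gata6 in ES cells (at least 1.18 and 1.39). With the processed signal under quantile normalization E was 1.05 for Gsc and 1.09 for Foxa2 in ES cells, 1.04 for Eomes, 1.83 for Gata4 and 1.18 for Cer1 in NPC, and 1.49 for Sox17 and at least 1.08 for Gata4 in NPC/Neu. With the same signal Gata6 reached at least 2.05, 1.47 and 1.60 from ES cells to NPC, and Eomes in NPC/Neu was 1.32 with separate normalization.

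Ago is brought to mRNAs by miRNAs that pair with 3′ UTR sites through their seed, bases 2 to 8. The miRNAs below are shown with the seed in capitals because they belong to families known to be active in ES cells (miR-302/miR-290, with a shared seed), in epithelial and early embryonic cells (miR-200b) and in neural cells (miR-9 and let-7). Their sequences are those of RefSeq (GRCm38.p6), and miR-124, also neural, was not searched:
miR-302b-3p: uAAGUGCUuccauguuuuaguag
miR-294-3p: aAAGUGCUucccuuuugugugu
miR-200b-3p: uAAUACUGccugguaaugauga
miR-9-5p: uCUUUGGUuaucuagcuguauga
let-7a-5p: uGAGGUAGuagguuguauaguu

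Of the 10 members, 1 held a match of 7 bases to the miR-302/miR-290 seed in its 3′ UTR, 2 to that of miR-200b, 1 to that of miR-9 and 0 to that of let-7. Among 18728 genes of the array with an annotated 3′ UTR the shares were 13.8%, 12.3%, 11.8% and 9.05%. The members' 3′ UTRs had a median length of 987 bases, beside 925 over those genes. The sites lay in Mixl1, Gata4 and Cer1, and Foxa2, called enriched in NPC and NPC/Neu, held none of them in its 637 bases. The sites are given 5′ to 3′ on the mRNA (mm9, minus strand), with the bases that pair with the seed in capitals:
Mixl1, miR-302/miR-290, chr1:182623532-182623559: catttttcttAGCACTTgttattatgtt
Cer1, miR-200b, chr4:82527862-82527889: aatacatgaaCAGTATTagagtcacttg
Gata4, miR-200b, chr14:63817777-63817804: gctgtaaaatCAGTATTtaactaataaa
Gata4, miR-9, chr14:63818379-63818406: aaaacctgctACCAAAGcagccttggtg

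Mixl1, the carrier of the miR-302/miR-290 match, was at background on both arrays of ES cells and was enriched by at least 1.45 in NPC. Cer1 had E of 0.58 in NPC. Gata4, with its 2 matches, had E of 0.92 in NPC and 0.48 in ES cells. T, Eomes, Gsc, Sox17, Gata6 and Lhx1 held no match to these 4 seeds, and their highest E with both arrays above background was 1.35, on the 3′ end probe of Eomes in NPC/Neu. No miRNA was measured on these arrays, and a match is a description of the sequence, not a site shown to be used.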

How the data were processed

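Total RNA and Ago-RNA of 4 stages were measured on 8 Agilent one-color mouse arrays, 1 per condition. The authors deposited spot intensity as extracted from the scans (Feature Extraction 10.7.3.1 per the file headers, 9.1 per the labels), not normalized between arrays, with flags for background and irregular spots. Mean and background intensity were corrected by normexp (offset 50, limma 3.58.1, R 4.3.3). Between 125 and 523 irregular spots per array were left out, and log2 values were quantile normalized, which removes differences in overall recovery between arrays. Repeated probes were averaged, then probes of a gene. A gene below background took its own value or the lowest signal well above background on that array, whichever was higher. The limit T1 was fitted with mclust 6.1.1. Probes and seeds were placed in GENCODE transcripts of the array's build (mm9), except the Gata6 probe, which was not found letter for letter in a coding transcript. Tested on simulated data, the call rule found 200 of 200 probes changed by a log2 difference of 2, well past its limit of 1. Those probes were drawn from signals far above background, and the simulated noise was smaller than the measured spot SD. The test therefore says nothing about calls for dim members.

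The members and gene lists were chosen with earlier results of these data known. Named beside the members are the 3 largest rises and falls of a list, a few pathway genes, the 3 genes of nearest course, and some list genes picked after their values were seen. Of these, 2 list genes are not reported here by name. The alternatives were other offsets, the processed signal, separate normalization, the brightest probe, T1 for detection, detection on both arrays and higher thresholds.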

Additional observations from a re-analysis of the deposited data

How the results depend on the processing

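No paired analysis was possible because each condition had 1 array. All 5 calls in total RNA and all 3 calls of E held with offsets of 16 and 0, the processed signal under either scaling, separate normalization and the brightest probe, and no called value changed sign. With the limit T1, the rise of Foxa2 from ES to ELA and the enrichment of Mixl1 in NPC were lost, and the Mixl1 call has no value where both arrays must be above background. With the processed signal under quantile normalization 36 of 57 values for single members moved by more than the spot SD, and with offset 16, 8 of 57. Separate normalization raised the median E of all genes to 0.12 to 0.15, and scaling to the 75th percentile lowered it to between -0.31 and -0.13. The number of arrays limits every value, and many member signals lay close to background, and the causes of the shifts below were not tested.

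Under T1 the members detected in total RNA were 1 in ES cells, 2 in ELA and 5 in NPC, and in Ago-RNA 3, 2 and, in NPC/Neu, 5. Members higher from ES to ELA were 2 with the processed signal under either scaling and 0 with T1 or the threshold of 2.5. Members higher from ELA to NPC were 4 with offset 0 and with the processed signal under either scaling, and 1 with the threshold of 2.5. Members lower from ELA to NPC were 1 with offsets of 16 and 0 and with the processed signal under either scaling. Members lower from NPC to NPC/Neu were 1 with offsets of 16 and 0, 2 with scaling to the 75th percentile and 3 with the processed signal under quantile normalization. Members enriched on Ago in ES cells were 1 with offsets of 16 and 0 and with scaling to the 75th percentile and 3 with the processed signal under quantile normalization, and 1 was depleted with scaling to the 75th percentile. In ELA 1 was enriched with offset 0 and with the processed signal under quantile normalization, and 1 was depleted with scaling to the 75th percentile. In NPC 4 were enriched with offset 0 and with scaling to the 75th percentile, 6 with the processed signal under quantile normalization, 1 with T1 or with detection on both arrays, and 0 at a threshold of 2. In NPC/Neu 2 were enriched with offset 0, with scaling to the 75th percentile and with separate normalization. There 3 were enriched with the processed signal under quantile normalization, and 0 at a threshold of 2. The shares of all genes given above hold for the main settings only. These counts thus show how the calls depend on the settings, not how the members stand beside other genes.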
